A study of Mus musculus with 10 samples.

Results

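The type I interferon stimulated genes described here are 35 mouse genes chosen by name: the receptor chains and transcription factors of the pathway and genes that it induces. They were found by gene name, and each of the 2 deposited tables lists 34 of the 35 names, among 23202 genes for sorted tumor macrophages and 19720 genes for whole mammary tumors. Ddx58, the RNA sensor RIG-I, is not listed under that name. A row named Rigi carries the identifier that the GENCODE vM21 annotation gives to Ddx58, and its values are given apart from the 34. The macrophage comparison tested all 34 and the tumor comparison tested 33, because the mean of Isg20 over the tumor libraries was under 1 CPM, the least tested.

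The mice were MMTV-PyMT mice on a B6 background, in which the polyoma middle T oncogene, expressed in mammary epithelium, gives rise to tumors, and both genotypes carried Cxcr4fl/fl. Mice labelled cKO also carried LysmCre, a Cre recombinase expressed from the lysozyme promoter of myeloid cells, which includes neutrophils and monocytes as well as macrophages. Controls were littermates without Cre. Tumors were taken at 15 weeks of age and chosen in pairs of matched size. Macrophages were sorted on F4/80 and CD11b from 3 cKO mice (725, 746 and 867) and 3 control mice (706, 720 and 775), and whole tumors came from 2 of these cKO mice (725 and 746) and 2 of these controls (706 and 720). Each library of a table is a different mouse.

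Type I interferons are secreted proteins that cells make after sensing foreign or misplaced nucleic acid. They bind a receptor of the chains IFNAR1 and IFNAR2, whose kinases JAK1 and TYK2 phosphorylate STAT2. STAT2 and IRF9 act in the complex ISGF3, which binds the interferon stimulated response element (ISRE) in promoters and induces genes that sense viral RNA, block its translation or replication, or feed back on the pathway. Macrophages express many of these genes at a basal level, and epithelial and stromal cells can express them too.

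Levels are given in CPM, reads per 1e+06 reads of listed genes. A difference between groups is the mean log2(CPM + 1) of cKO libraries minus that of controls. Depth was 14.4 to 25.2 M reads in macrophage libraries and 34.2 to 53.4 M reads in tumor libraries (M, 1e+06). The F4/80 gene Adgre1 had a level of 429 ± 117 CPM in the sorted libraries (SD, n = 6) and 23.6 ± 4.63 CPM in tumors (SD, n = 4). Epithelial RNA was present in the sorted libraries too, with Epcam at 462 ± 102 CPM (SD, n = 6) against 374 ± 60.4 CPM in tumors (SD, n = 4). Krt8 was at 364 ± 107 CPM in sorted libraries (SD, n = 6) and 60.8 ± 8.64 CPM in tumors (SD, n = 4). The 7 epithelial markers summed to 3510 to 7229 CPM in sorted libraries and 5266 to 7331 CPM in tumors. Macrophage levels below are those of the sorted libraries, not of macrophages alone. On average, libraries labelled cKO did not hold less Cxcr4. In macrophages its level was 77.1 ± 76.8 CPM against 68.0 ± 61.6 CPM in controls (SD, n = 3 each). In tumors it was 52.7 ± 6.83 against 31.6 ± 2.52 CPM (SD, n = 2 each). Among macrophage libraries Cxcr4 was highest in cKO 746 and control 720 (165 and 135 CPM) and at 14.4 to 54.3 CPM in the others. Every direction below is therefore between libraries labelled cKO and control.

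The element through which ISGF3 acts was looked for in the promoters of these genes. Of the promoters with its core, 6 are printed here beside that of Ifnar1, in which the core was not found. They are shown because the genes below differ in whether they carry it. RefSeq promoters were found for 26 of the 35 genes. The ISRE core was searched as GAAA, any 2 bases and again GAAA, or on the other strand TTTC, any 2 bases and again TTTC. It was in 13 of the 26 (50%), against 3.99% of the 27025 mouse gene names with a promoter in the same source. A gene counted where any of its promoters held the core, each a window of 250 bases before to 50 bases after the annotated start. The gamma-activated site TTCNNNGAA, which reads the same on both strands and is known from interferon gamma signaling, was in 8 of the 26 (30.8%) against 9.55%. Each line holds the 200 bases before the start, 5′ to 3′ on the gene's strand, from RefSeq on GRCm38.p6, with cores in capitals. These are Isg15 (minus strand, chr4:156200819-156201018), Ifit1 (plus strand, chr19:34640689-34640888), Ifit3 (plus strand, chr19:34583329-34583528), Ifit3b (plus strand, chr19:34607757-34607956), Rsad2 (minus strand, chr12:26456453-26456652), Oas3 (minus strand, chr5:120777660-120777859) and Ifnar1 (plus strand, chr16:91485015-91485214).
Isg15: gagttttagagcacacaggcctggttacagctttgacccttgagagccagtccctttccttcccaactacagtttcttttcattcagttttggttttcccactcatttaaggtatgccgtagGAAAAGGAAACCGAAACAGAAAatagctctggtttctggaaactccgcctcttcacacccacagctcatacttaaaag
Ifit1: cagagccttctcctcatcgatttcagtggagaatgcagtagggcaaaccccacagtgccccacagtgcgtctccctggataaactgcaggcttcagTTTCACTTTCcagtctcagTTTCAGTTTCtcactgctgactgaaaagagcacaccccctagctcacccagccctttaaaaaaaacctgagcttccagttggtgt
Ifit3: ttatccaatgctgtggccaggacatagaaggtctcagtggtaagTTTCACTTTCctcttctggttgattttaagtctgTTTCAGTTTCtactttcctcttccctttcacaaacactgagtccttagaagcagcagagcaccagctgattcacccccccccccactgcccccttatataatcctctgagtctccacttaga
Ifit3b: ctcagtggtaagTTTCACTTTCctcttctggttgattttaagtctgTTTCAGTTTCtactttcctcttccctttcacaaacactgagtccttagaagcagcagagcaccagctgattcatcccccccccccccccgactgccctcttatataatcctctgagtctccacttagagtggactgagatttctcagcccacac
Rsad2: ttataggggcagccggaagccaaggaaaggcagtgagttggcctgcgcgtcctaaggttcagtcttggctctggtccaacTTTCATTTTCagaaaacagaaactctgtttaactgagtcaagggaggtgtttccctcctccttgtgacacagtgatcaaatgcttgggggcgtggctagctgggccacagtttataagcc
Oas3: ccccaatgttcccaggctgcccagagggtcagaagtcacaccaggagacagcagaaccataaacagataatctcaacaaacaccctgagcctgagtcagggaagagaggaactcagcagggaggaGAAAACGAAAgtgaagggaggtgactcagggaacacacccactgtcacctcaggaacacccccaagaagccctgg
Ifnar1: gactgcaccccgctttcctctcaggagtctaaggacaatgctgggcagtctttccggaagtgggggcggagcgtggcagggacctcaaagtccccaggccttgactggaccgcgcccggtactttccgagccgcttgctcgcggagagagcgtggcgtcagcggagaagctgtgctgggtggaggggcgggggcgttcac

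The cores of Isg15 begin 78, 72 and 66 bases before the start and overlap, so that the capitals run on as a single stretch. Ifit1 has a core 104 and another 85 bases before the start, in the reverse orientation to those of Isg15. The Ifit3 and Ifit3b promoters carry the same pair of cores, TTTCACTTTC and TTTCAGTTTC, 156 and 122 bases before the start of Ifit3 and 188 and 154 bases before that of Ifit3b. Their promoters were identical in 166 of 232 aligned columns (71.6%), and 41.1% of the 75-base stretches of Ifit3 also occur in Ifit3b. Reads of these neighbors can therefore be split between them, and both are uncertain as single genes. The same holds for Oas1a, which shares 47.6% of its stretches with Oas1g. Irf9, Ifnar2, Irf7 and Rtp4 each overlap another protein-coding gene, and whether strand was used in counting is not given in the sources used here. A match to these letters is a description of the sequence and not a site shown to be bound.

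The 34 genes were all read in sorted macrophages, at levels that span a wide range. Per kilobase of exon, Trim30a, a TRIM-family regulator, had the highest mean level there, 39.2 ± 7.79 CPM per kb, followed by Rsad2 (viperin, which makes a chain-terminating nucleotide) at 32.3 ± 13.1 CPM per kb (SD, n = 6 each). Bst2 (tetherin, which holds virus particles at the cell surface) followed at 25.2 ± 20.7 CPM per kb, then Ifit1 at 20.3 ± 7.47 and Rtp4 at 20.2 ± 8.02 CPM per kb (SD, n = 6 each). Each of these neighbors in the order lay within the spread of the next. At the other end were the antiviral GTPases Mx1 (2.79 ± 1.32 CPM per kb) and Mx2 (2.23 ± 0.816 CPM per kb) and the exonuclease Isg20 (0.966 ± 0.832 CPM per kb, SD, n = 6 each). Isg20 was listed at 0 in control 775 and cKO 867, which allows up to 0.13 and 0.119 CPM by a limit of 3 reads that covers counting error only.

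In tumors the order was led by Ifit1, a protein that binds viral RNA lacking the host cap, at 64.8 ± 23.0 CPM per kb. Rtp4, a zinc-finger protein induced by interferon, followed at 34.5 ± 4.45 CPM per kb, Ifi44 at 27.2 ± 7.49 and Eif2ak2 (the kinase PKR) at 15.8 ± 1.31 CPM per kb (SD, n = 4 each). Trim30a, highest in macrophages, was at 14.4 ± 5.23 CPM per kb in tumors, within the spread of Rsad2 at 14.5 ± 5.86 CPM per kb. Lowest were Isg20 (0.338 ± 0.677 CPM per kb), Mx2 (0.611 ± 0.265) and Mx1 (0.854 ± 0.306 CPM per kb, SD, n = 4 each). Isg20 was at 2.52 CPM in control 706 and at 0 in the other 3 tumors. Bst2 was at 6.64 CPM in control 706, listed at 0 in control 720 (a limit of 0.0860 CPM), and at 3.11 and 0.876 CPM in cKO 725 and 746. Such gaps were common at low levels and uncommon at higher ones. Of the genes with a mean of 1 to 2 CPM over a table's other libraries, 36.5% to 47.8% had under 3 reads in a given tumor library. In a given macrophage library this share was 24.5% to 56.3%. For a mean of 5 to 10 CPM the shares were 1.30% to 4.02% in tumors and 0.956% to 8.26% in macrophages. The mean of Bst2 over the other tumors lay between these classes.

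Among the sorted macrophages these genes differed between mice of the same genotype, and each genotype held a high and a low library. In cKO 746 all 34 stood above their own mean over the table, with a median deviation of 0.62 on the log2 scale, against 0.14 for all genes tested. Control 720 was the next highest, with 31 of 34 above the mean and a median of 0.38 (all genes 0.08). Control 775 and cKO 867 were low, each with 29 of 34 below the mean and medians of -0.31 (all genes -0.07) and -0.43 (all genes 0.10). The highest library and the lowest library by this measure were thus both labelled cKO, and the other high and low libraries were both controls.

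The order did not come from a few genes. cKO 746 was the highest library for 16 of the 34 genes, where it was the highest for 24% of all genes tested. Control 720 was the highest for 11 (19.4% of all genes), so that these libraries held the maximum of 27 of the 34. cKO 867 was the lowest for 13 (12.5% of all genes) and control 775 for 10 (19.4%). Summed over the 34 genes, macrophage levels were 2064 CPM in cKO 746, 1938 in control 720, 1547 in control 706, 1470 in cKO 725, 1211 in control 775 and 1123 CPM in cKO 867. Scaled to protein-coding genes, the median deviations of cKO 746 and cKO 867 were 0.55 and -0.48, and that of control 775 was -0.16. Those of control 720, control 706 and cKO 725 were 0.29, 0.03 and -0.11. On this scale control 775 therefore lay close to cKO 725.

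**Figure D1:**
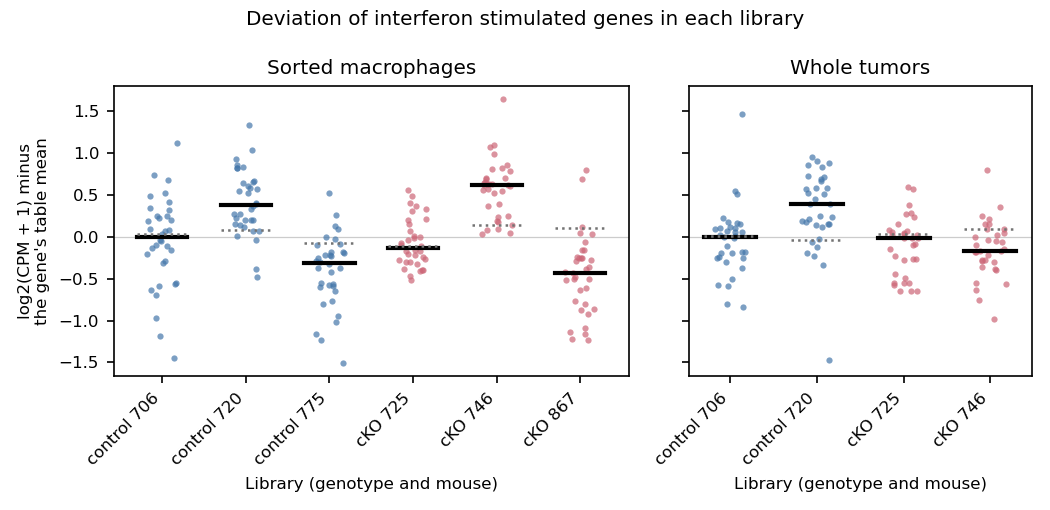
Each point is 1 gene: its log2(CPM + 1) in a library minus its mean over the table (vertical axis, log2 units), by genotype and mouse (horizontal axis), in blue for control and red for cKO. Black bars are medians of the genes and dotted lines medians of all genes tested. Among macrophages the black bar is highest in cKO 746 (0.62) and lowest in cKO 867 (-0.43), and among tumors it is highest in control 720 (0.39).

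Bst2 spanned 10.3-fold, from 5.35 CPM in control 775 and 6.72 CPM in cKO 867 to 31.6 CPM in control 720 and 55.3 CPM in cKO 746. Isg15, a ubiquitin-like protein that is joined to other proteins, was at 27.7 CPM in cKO 746, 12.3 to 14.9 CPM in cKO 725, control 706 and control 720, 8.62 CPM in cKO 867 and 5.61 CPM in control 775. Irf7, the transcription factor that amplifies interferon production, was at 68.7 and 58.9 CPM in control 720 and cKO 746 and at 29.4 and 20.6 CPM in control 775 and cKO 867. The pattern was not shared by every gene. Mx1 and Mx2 were highest in cKO 867, at 17.5 and 13.0 CPM, where 29 other genes of the family were below their means. The sensor Ifih1 (MDA5) stayed between 71.2 and 99.2 CPM in the 6 libraries, and Parp14, a mono-ADP-ribosyltransferase, between 101 and 133 CPM.

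**Figure D2:**
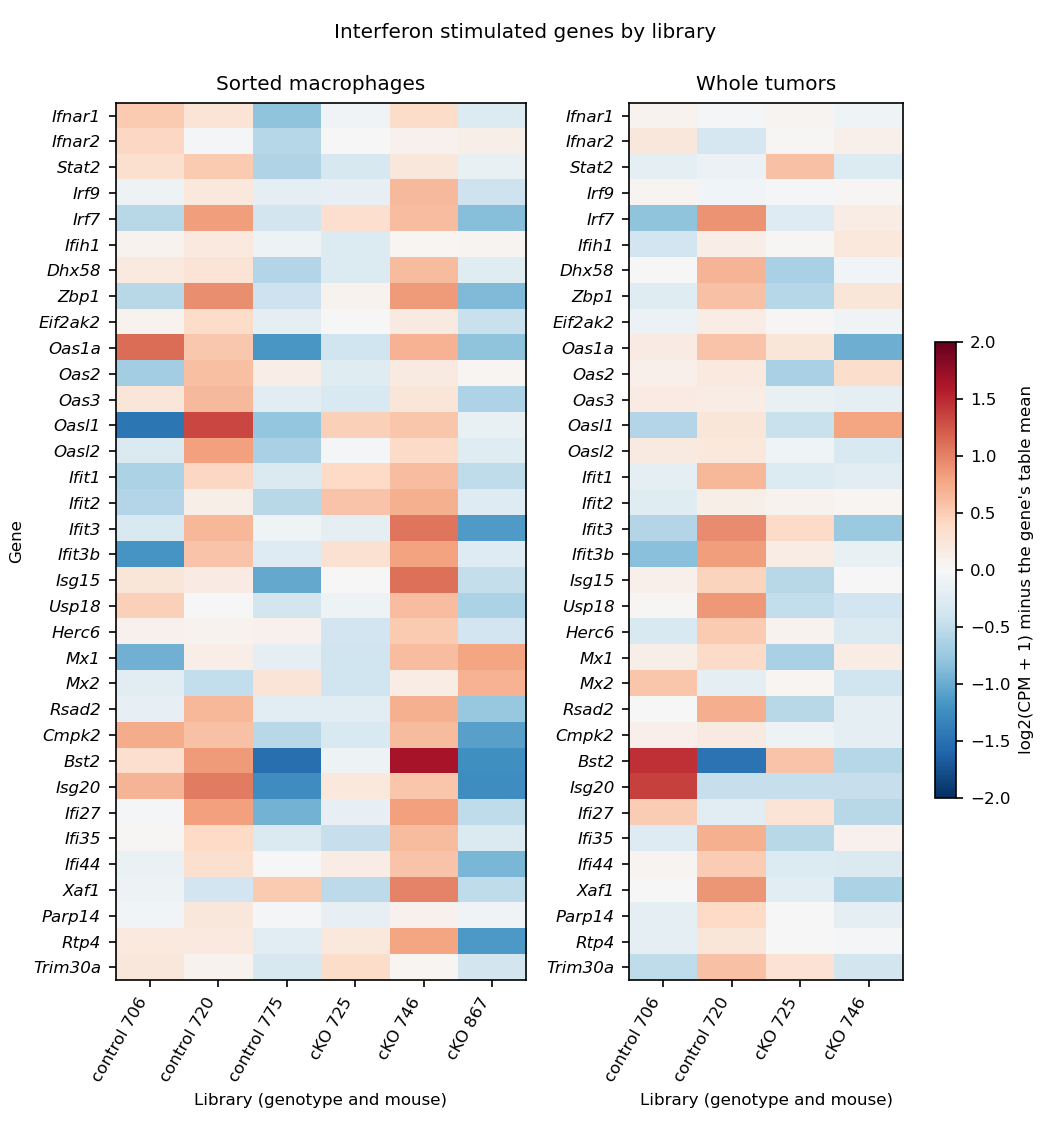
Rows are the 34 genes in order of role, columns are libraries by genotype and mouse, and color is log2(CPM + 1) minus the gene's mean over its table (red above, blue below, in log2 units). In macrophages the column of cKO 746 is red throughout, while Mx1 and Mx2 are red in the otherwise mostly blue column of cKO 867.

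Other cell types' markers also differed between these libraries, and their part in the pattern was not tested. In bulk RNA, fewer cells of a type and less RNA per cell cannot be told apart. The 12 macrophage markers, none of them at 0 in all libraries, summed to 1096 CPM in control 775 and to 2161 to 2736 CPM in the other 5 libraries, with the highest sum in cKO 746. Within this sum the markers of cKO 867 went both ways. C1qa, C1qb and C1qc were lowest in control 775 (55.7, 151 and 49.1 CPM) and next lowest in cKO 867 (80.3, 242 and 100 CPM). Mrc1 and Itgam were highest in cKO 867, at 507 and 191 CPM. The 6 fibroblast markers summed to 422 CPM in control 775 and 1165 CPM in cKO 867, and to 57.2 to 137 CPM in the other 4. The 5 endothelial markers summed to 92.5 and 238 CPM in those libraries and to 14.3 to 21.4 CPM in the others. The 5 monocyte markers summed to 1131 CPM in cKO 867 and 186 to 359 CPM elsewhere. Most of that monocyte sum was Ccr2, at 979 CPM in cKO 867 and 140 to 273 CPM elsewhere. Vcan and Chil3 were also highest in cKO 867, but Ly6c2 and Plac8 were not. Thus both libraries with low interferon stimulated genes were also the libraries with the most fibroblast and endothelial RNA. The 7 epithelial markers summed to 3510 CPM in control 706 and up to 7229 CPM in control 720, and this sum did not follow the same order. Csn3 was its largest part, at 1557 and 4908 CPM in those libraries. Epcam and Krt8 were highest in cKO 746 (616 and 526 CPM) and lowest in control 775 (339 and 260 CPM). Cdh1 and Krt19 were instead highest in control 775 (824 and 592 CPM). Markers of plasmacytoid dendritic cells, which make much type I interferon, summed to 309 to 415 CPM over 5 listed of 6, with the highest sum in control 775. Klk1 was not listed, and Tcf4 and Ly6d, which other cells also express, made up most of that sum.

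Macrophages labelled cKO were compared with control macrophages to ask how the genotype label relates to the interferon response. None of the 34 genes passed the test (limma, lowest adjusted p = 0.9998), as was true of all genes tested (0% of 16304). At an unadjusted limma p under 0.05 there were 0 of the 34, against 2.63% of all genes. The median log2 difference of the 34 was -0.01 (all genes 0.05), with 17 above and 17 below 0. In no gene were the 3 cKO libraries all above or all below the 3 controls, where 3.78% of all genes had them all above and 3.45% all below. The difference was smaller than the spread within groups for 31 of the 34, against 76% of all genes.

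The balance of signs depended on single libraries. Without cKO 746 the median was -0.27 and 26 of the 34 differences were negative. Without cKO 867 it was 0.22 and 26 were positive. Without control 775 it was -0.18 with 25 negative, and without control 720 it was 0.12 with 24 positive. None of the 34 passed the test in any of these fits.

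By role, the receptor chains come first. Ifnar1 was at 92.3 ± 38.9 CPM in control and 88.0 ± 21.0 CPM in cKO macrophages, a log2 difference of 0.01 (95% interval -0.65 to 0.67). Ifnar2 was at 54.6 ± 18.7 and 57.7 ± 2.85 CPM, with a difference of 0.13 (-0.50 to 0.76, SD, n = 3 each). The transcription factors Stat2, Irf9 and Irf7 had differences of -0.16, 0.05 and 0.06. Sensors of viral nucleic acid lay close to 0 as well: Ifih1 -0.12, Dhx58 (LGP2, a regulator of RIG-I-like sensing) 0.07, Zbp1 (a sensor of Z-form nucleic acid) 0.03 and Eif2ak2 -0.16. The row named Rigi had 98.7 ± 10.2 CPM in controls and 104.8 ± 48.8 CPM in cKO macrophages (SD, n = 3 each). For Parp14, with the narrowest interval, the difference of -0.10 had bounds of -0.62 and 0.42, and for 18 of the 34 genes both bounds lay within 1 log2 unit of 0. For the other 16 the interval included a change of 1 log2 unit in at least 1 direction.

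The IFIT family, RNA-binding proteins that block translation, had the highest median of the role groups, 0.46, with 3 of 4 genes positive. Ifit2 was at 16.7, 27.7 and 17.2 CPM in controls 706, 720 and 775 and at 38.3, 42.3 and 21.3 CPM in cKO 725, 746 and 867. The groups overlapped because cKO 867 lay below control 720. Its log2 difference of 0.68 (SE 0.39, limma adjusted p = 0.9998) had the lowest p of the 34. Ifit1 was at 32.5, 67.9 and 41.3 CPM in the controls and 67.7, 79.1 and 35.6 CPM in cKO, a difference of 0.35 (SE 0.35). Ifit3 and Ifit3b had differences of -0.18 and 0.58, of opposite sign although their sequences are partly shared.

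The oligoadenylate synthetases make a short RNA-like messenger that activates RNase L. Oas3 was at 56.0, 74.3 and 40.5 CPM in controls and 38.1, 56.0 and 30.4 CPM in cKO macrophages, and its log2 difference was -0.45 (95% interval -1.13 to 0.23). In both groups the library named above as high, control 720 or cKO 746, held the maximum. Oasl1, which restrains translation of Irf7, had a difference of 0.59 resting on a low control: 5.21, 41.9 and 8.96 CPM in controls against 22.8, 24.0 and 14.3 CPM in cKO. Oas1a (-0.34), Oas2 (-0.03) and Oasl2 (0.07) were on either side of 0.

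Among the effectors, Rsad2 was at 117, 207 and 112 CPM in controls and 113, 214 and 76.9 CPM in cKO macrophages, so each group held 1 library near 210 CPM and the difference was -0.18 (SE 0.33). Cmpk2, its neighbor on chromosome 12 and a nucleotide kinase, was at 50.9, 45.6 and 20.1 CPM and 24.2, 47.4 and 13.6 CPM, a difference of -0.50 (SE 0.43), the most negative of the 34. Mx1 was at 4.45, 10.7 and 8.34 CPM and 7.08, 15.3 and 17.5 CPM, a difference of 0.68 (SE 0.56). In all 3 the groups overlapped. For ISG15 modification, Isg15 had a difference of 0.41, Usp18 (which removes ISG15 and damps the receptor) -0.08 and the ligase Herc6 -0.17. The 7 other induced genes lay between -0.13 (Ifi44) and 0.10 (Ifi27).

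**Figure D3:**
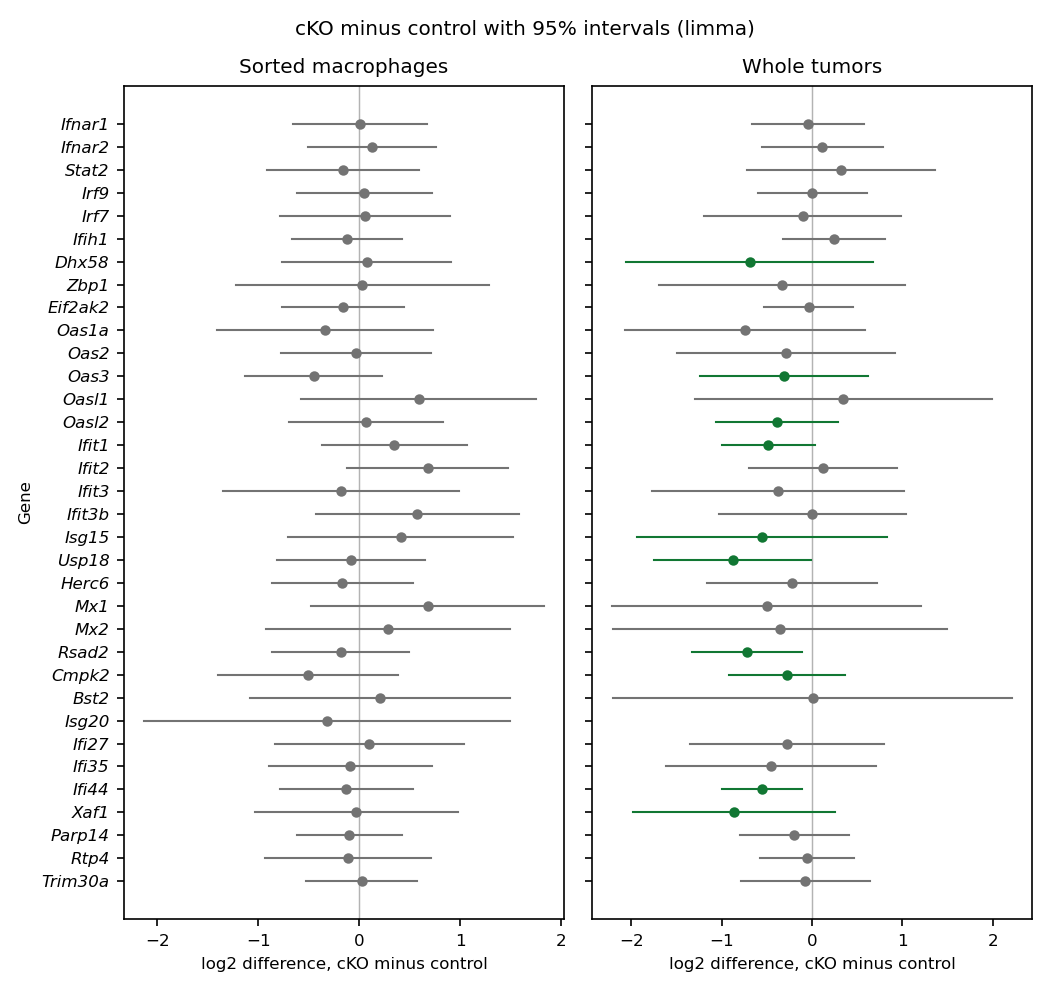
Points are differences of log2(CPM + 1) between cKO and control libraries, below 0 where cKO is lower (horizontal axis), with 95% intervals from limma, for each gene (vertical axis) in macrophages (3 mice against 3) and tumors (2 against 2). Green marks genes whose cKO tumors were both below both control tumors. Macrophage points fall on both sides of 0, and 25 of 33 tumor points are below 0.

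Whole tumors gave lower values for most of these genes in the libraries labelled cKO, without a gene passing the test. The median log2 difference was -0.28, where that of all genes tested was 0.09, and 25 of 33 differences were negative against 43.4% of all genes. The adjusted p was at least 0.819 (limma), and none was called (0% of 14630 genes tested). Rsad2, Ifi44 and Usp18 had an unadjusted limma p under 0.05, which is 3 of 33 against 5.85% of all genes. Both cKO tumors were below both controls for 10 of the 33, where this held for 14.3% of all genes, and both were above for 0, where this held for 21.2%. The difference was larger than the spread within groups for 12 of the 33, against 44.8% of all genes. Scaled to protein-coding genes, the median of all tumor genes shifted from 0.09 to -0.02, the median of the 33 to -0.39 and the negative differences to 29.

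Control 720 stood out among the tumors too. It was the highest of the 4 for 22 of the 33 genes, where it was the highest for 23.5% of all genes, and its median deviation was 0.39 (all genes -0.04). The other 3 tumors were close together, at -0.01 (control 706), -0.02 (cKO 725) and -0.17 (cKO 746), and the levels summed over the 34 listed genes were 1475 CPM in control 720 and 993 to 1032 CPM in the others. Without control 720 the median difference was -0.09, with 19 negative and 14 positive, and without control 706 it was -0.49. Without control 720 the cKO tumors were both below control 706 for 16 of the 33 genes (31.5% of all genes) and both above it for 10 (36.9%). Without control 706 they were both below control 720 for 23 (30.9% of all genes) and both above for 3 (40.7%).

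The 10 genes without overlap were Rsad2, Ifi44, Ifit1, Usp18, Xaf1, Isg15, Dhx58, Oas3, Oasl2 and Cmpk2. Rsad2 was at 59.0 and 99.0 CPM in controls 706 and 720 and at 40.2 and 52.5 CPM in cKO 725 and 746, with a difference of -0.72 log2 units (SE 0.29, limma adjusted p = 0.819). Ifi44, a protein of unsettled function that interferon induces, had 169 and 231 CPM in controls and 134 and 133 CPM in cKO tumors, a difference of -0.56 (SE 0.21, limma adjusted p = 0.819). For both genes control 706 lay closer to the cKO tumors than to control 720.

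Usp18 had 20.2 and 36.9 CPM in controls and 13.8 and 15.0 CPM in cKO tumors, a difference of -0.88 (SE 0.41, limma adjusted p = 0.833). Xaf1, which promotes cell death, had a difference of similar size, -0.87 (SE 0.53), from 10.9 and 21.1 CPM against 9.25 and 6.72 CPM. Ifit1 had 145 and 264 CPM in controls and 137 and 142 CPM in cKO tumors. Control 706 and the cKO tumors thus differed little for Ifit1, and its difference of -0.48 (SE 0.24) came mainly from control 720.

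In 3 of the 10 the controls were close to each other. Oas3 was at 16.4 CPM in both controls and at 13.1 and 12.8 CPM in cKO tumors, Oasl2 at 34.9 and 35.7 against 28.8 and 24.7 CPM, and Cmpk2 at 37.2 and 39.3 against 32.2 and 30.5 CPM. These differences did not depend on control 720 but were small, -0.31, -0.39 and -0.28. Isg15 had 6.67 and 8.77 CPM in controls and 3.88 and 6.13 CPM in cKO tumors, and Dhx58 at 6.62 and 11.2 against 3.86 and 6.33 CPM. For both the nearest cKO tumor was within 1 CPM of control 706.

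**Figure D4:**
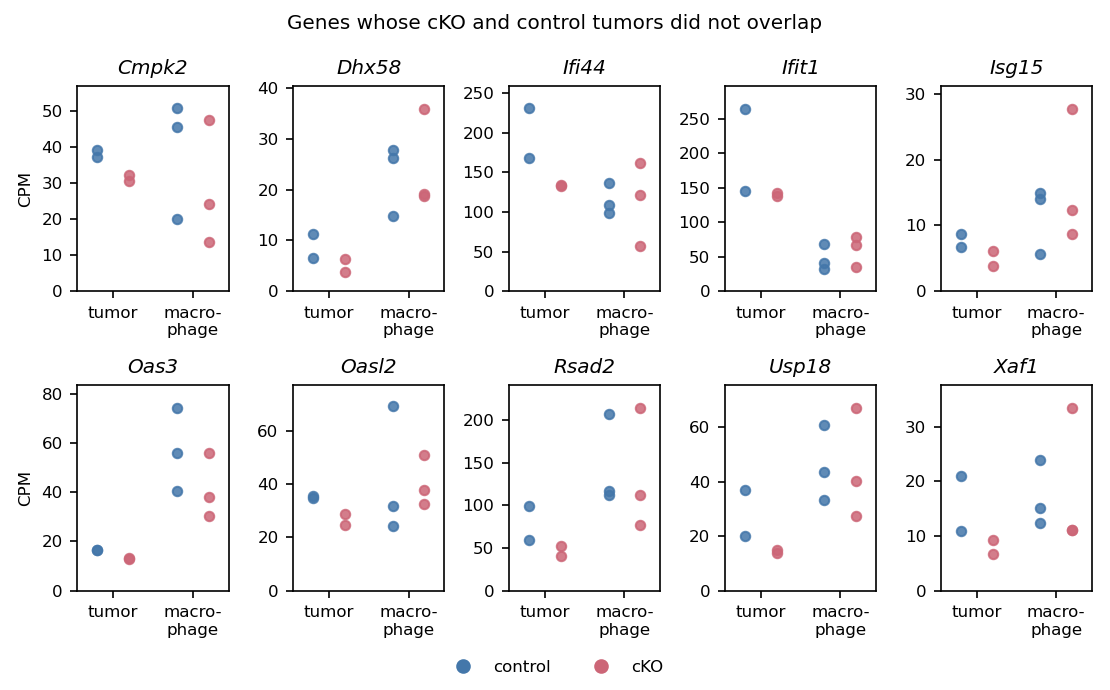
Levels in CPM (vertical axis, from 0) of the 10 genes whose cKO tumors (red) were both below both control tumors (blue), with the macrophage libraries of each genotype beside them. Each point is 1 mouse. Tumor groups do not overlap by the choice of these genes, and in macrophages the groups overlap in each panel.

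The promoter cores did not separate these genes from the rest. Of the 8 with a RefSeq promoter, 4 had the ISRE core (Ifit1, Isg15, Oas3 and Rsad2, printed above), and of the 17 other tabled genes listed by name 8 had it. No core was found in these windows for Cmpk2, Ifi44, Oasl2 and Xaf1, which is a statement about these letters only.

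Differences were unequal across roles in tumors. The 3 genes of ISG15 modification were all negative with a median of -0.55, and the 7 other induced genes were all negative with a median of -0.28. The oligoadenylate synthetase family had 4 of 5 negative and a median of -0.31, and the 5 tested effectors had 4 of 5 negative and a median of -0.35. The 4 IFIT genes had 2 negative and a median of -0.19, and the 4 nucleic acid sensors had 3 negative and a median of -0.18. Medians were nearest to 0 for the 2 receptor chains, 0.04, and the 3 transcription factors, 0.00. The transcription factors ran from -0.10 to 0.32. Ifnar1 had 38.8 ± 1.83 CPM in controls and 37.7 ± 2.76 CPM in cKO tumors, a difference of -0.04 (95% interval -0.66 to 0.58). Irf9 was at 41.0 ± 2.39 and 41.1 ± 0.863 CPM, a difference of 0.00 (-0.60 to 0.61, SD, n = 2 each). The differences between roles were not tested.

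Of the 8 genes with positive differences, Irf9, Ifit3b and Bst2 were within 0.01 of 0. Stat2 had 10.9 and 11.6 CPM in controls and 19.6 and 10.3 CPM in cKO tumors, so its difference of 0.32 rested on cKO 725. Oasl1 had 2.46 and 5.10 CPM in controls and 2.81 and 7.97 CPM in cKO tumors, and its difference of 0.35 rested on cKO 746. Ifih1, at 46.0 and 65.9 against 61.0 and 69.9 CPM, had a difference of 0.24. The row named Rigi, at 102 and 95.2 CPM in controls and 86.0 and 94.8 CPM in cKO tumors, had both cKO tumors below both controls and a difference of -0.13.

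Summed cell type markers in tumors moved with the groups for some types, and their part in the differences was not tested. The 6 fibroblast markers, none at 0, summed to 595 and 704 CPM in control tumors and 331 and 445 CPM in cKO tumors, with the highest sum in control 720. Singly, Col1a1 and Pdgfra overlapped between the groups, and Pdgfra was highest in cKO 746 (18.3 CPM). The 4 pericyte markers summed to 92.1 and 90.6 CPM in controls and 69.8 and 82.8 CPM in cKO tumors. Of these only Mcam had both cKO tumors below both controls (16.0 and 12.4 against 31.8 and 22.7 CPM). For Rgs5, Pdgfrb and Cspg4 the groups overlapped, with Rgs5 highest in cKO 746 (57.6 CPM). Plasmacytoid dendritic markers, 5 listed of 6 with Klk1 not listed, summed to 188 and 175 CPM in controls and 189 and 224 CPM in cKO tumors. Most of that sum was Tcf4, which other cells also express, at 175 and 144 CPM in controls and 162 and 187 CPM in cKO tumors. Siglech was at most 1.86 CPM. The 12 macrophage markers summed to 122 and 145 CPM in controls and 141 and 115 CPM in cKO tumors, so these groups overlapped. Ptprc, the leukocyte marker CD45, had 27.6 and 43.8 CPM in controls and 33.6 and 20.2 CPM in cKO tumors, with the highest value again in control 720. NK-cell markers were at or near 0: Gzma, Prf1 and Ncr1 were not listed in tumors, and the sum was at most 0.849 CPM.

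In 4 mice both macrophages and tumor were sequenced, which shows whether a mouse that is high in its macrophages is high in its tumor. Among controls, 720 was above 706 for 24 of 34 genes in macrophages (50.8% of all genes) and for 26 of 33 in tumors (47.7%). For 19 of the 33 genes tested in both tables it was above in both, which held for 25.2% of all genes. Among cKO mice, 746 was above 725 for 33 of 34 genes in macrophages (62.7% of all genes) but for 14 of 33 in tumors (54.3%), and for 14 of 33 in both (35.9%). Mouse 720 was thus high in both tables, and mouse 746 was high in macrophages only by this count. Rsad2 gives an example: macrophages of 720 and 746 held 207 and 214 CPM, and their tumors held 99.0 and 52.5 CPM. With 2 mice a genotype no test of this was made.

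Levels in sorted macrophages were set beside those in the tumor of the same mouse. The sorted libraries also hold epithelial RNA, as given above, so their levels are not of macrophages alone. Each table had its own normalization, and reads of protein-coding genes made up 67.6% to 80.1% of macrophage libraries and 49.7% to 56.5% of tumor libraries, so no test was run and both scalings are given. On the deposited scale 23 of 33 genes were higher in macrophages in all 4 mice, against 34.3% of all genes, and 3 were higher in tumor in all 4 (Ifit1, Rtp4 and Eif2ak2), against 11.5%. Scaled to protein-coding genes the counts were 14 (18.9% of all genes) and 4, with Ifi44 added (25.4%). The median over genes was 1.16 log2 units toward macrophages on the first scale (all genes 0.35) and 0.67 on the second (all genes -0.12).

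Oas2, Oas3, Oasl1, Dhx58 and Trim30a were above the tumor in all 4 mice on both scales. Their median log2 differences on the deposited scale were 1.92, 1.88, 2.06, 1.93 and 1.72, with a range for Oas3 of 1.47 to 2.12 over mice. The receptor chains were also higher in macrophages in each mouse on both scales, Ifnar1 by 1.03 to 1.61 and Ifnar2 by 0.61 to 0.95 log2 units on the deposited scale, and by 0.56 to 1.15 and 0.15 to 0.33 when scaled to protein-coding genes. Bst2 was at 21.8, 31.6, 15.7 and 55.3 CPM in macrophages of 706, 720, 725 and 746 and at 6.64, 0, 3.11 and 0.876 CPM in their tumors.

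Ifit1 went the other way. Its tumor level was 1.8 to 4.46 times its macrophage level in the 4 mice: 145 against 32.5 CPM in 706, 264 against 67.9 CPM in 720, 137 against 67.7 CPM in 725 and 142 against 79.1 CPM in 746. The other IFIT genes had mice on both sides of 0 on both scales. The median differences of Ifit2, Ifit3 and Ifit3b were 0.58, 0.46 and -0.24 on the deposited scale and 0.02, -0.09 and -0.76 when scaled to protein-coding genes, so that of Ifit3 changed sign. Rtp4 was at 64.1, 86.7, 72.4 and 71.1 CPM in tumors and 45.5, 45.7, 45.9 and 69.3 CPM in macrophages of the same mice, and in the tumor table it overlaps the long noncoding gene Gm45338 on the same strand. Ifit1 shares 5.19% of its 75-base stretches with Ifit1bl2.

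**Figure D5:**
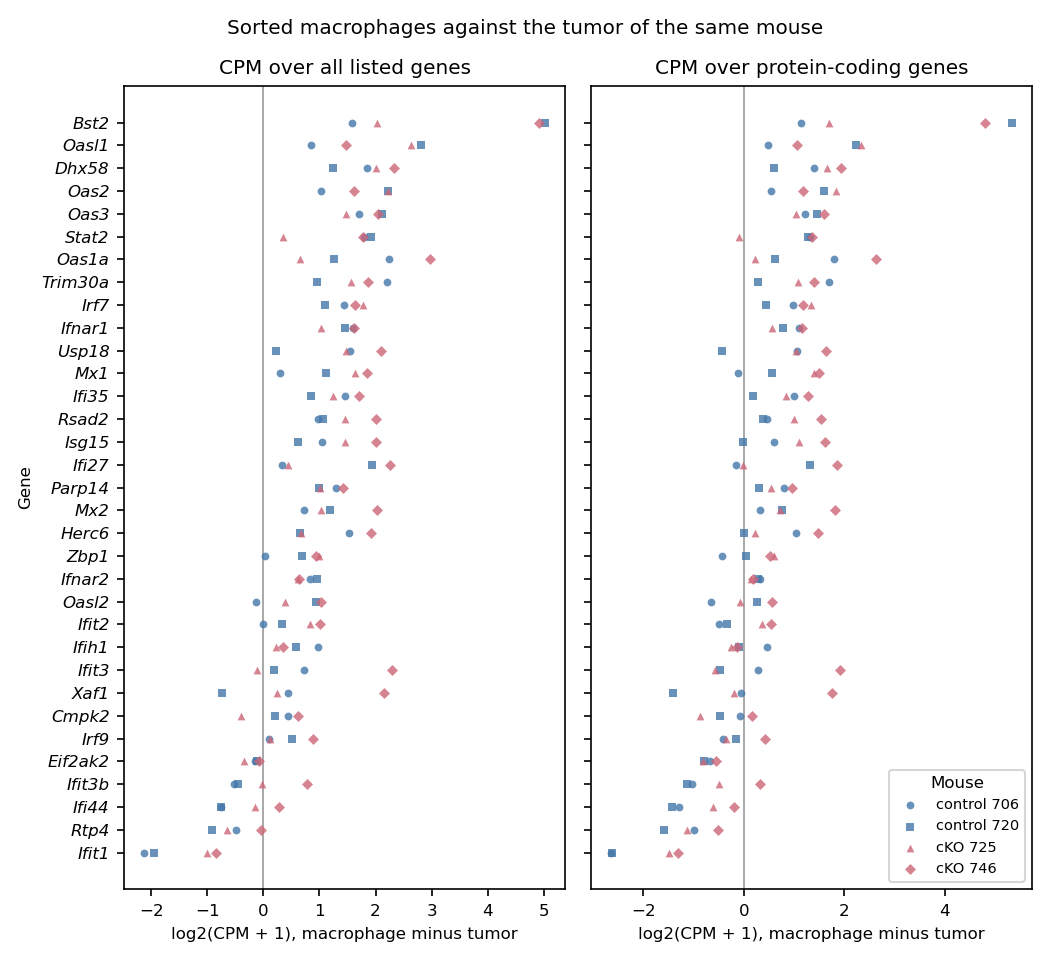
Horizontal axes give log2(CPM + 1) in macrophages minus that in the tumor of the same mouse, for each of the 33 genes (vertical axis), with a symbol per mouse, scaled to all listed genes (left) and to protein-coding genes (right). Ifit1 is to the left of 0 in all 4 mice on both scales, and Bst2, listed at 0 in the tumor of control 720, lies farthest to the right.

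Other genes of the pathway, from lists chosen with earlier results of these data known, were also without calls. Of 21 interferon genes each table lists 1, Ifnk in macrophages and Ifnz in tumors, both under the expression filter, so ligand expression is not described here. None of 16 receptor signaling genes in macrophages and 15 in tumors passed the limma test, with medians of 0.23 and 0.11. The same held for 23 sensing and adaptor genes in each table (medians 0.24 and 0.18) and for 87 and 73 further interferon stimulated genes (0.07 and -0.17). In that last list 45 of the 73 tumor differences were negative (43.4% of all genes). Both cKO tumors were below both controls for 13 of the 73, a share near the 14.3% of all genes, and above for 7 (21.2% of all genes). Of 26 tested interferon gamma targets, 18 were negative in tumors (43.4% of all genes) with a median of -0.20. For 8 of these 26 both cKO tumors were below both controls (14.3% of all genes), and for 1 both were above (21.2%). At an unadjusted limma p under 0.05 there were 0, 0, 2 and 2 genes of the receptor signaling, sensing, further stimulated and gamma target lists in macrophages, where all genes gave 2.63%, and 0, 1, 8 and 3 in tumors, where all genes gave 5.85%.

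Ifitm3, which blocks virus entry, was at 42.4 and 54.3 CPM in control tumors and 33.4 and 22.9 CPM in cKO tumors, a difference of -0.77 (SE 0.32, limma adjusted p = 0.819). It therefore lay on the same side as most of the 33 genes. The other tested Ifitm genes, both at lower levels in tumors, had positive differences.

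Other genes of these lists went the opposite way in tumors. Samhd1, a nucleotide hydrolase, had 19.1 and 25.9 CPM in controls and 35.1 and 46.1 CPM in cKO tumors, a difference of 0.83 (SE 0.33, limma adjusted p = 0.819). Irf1, a factor induced mainly by interferon gamma, was at 9.25 and 8.77 CPM against 13.9 and 22.1 CPM, and the kinase Tyk2 at 9.60 and 8.17 against 12.7 and 17.6 CPM, with differences of 0.89 and 0.69. In macrophages the differences of Samhd1, Irf1 and Tyk2 were 0.13, 0.02 and 0.25. Cxcl10, a chemokine that both interferon types induce, was at 3.02 to 19.9 CPM in the 6 macrophage libraries, lowest in cKO 867 and highest in cKO 746, the same extremes as the 34 genes as a group.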

How the data were processed

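Libraries were made from RNA depleted of ribosomal RNA, per the labels' protocols. Reads were processed with STAR 2.7.8a, Partek and the build GRCm38 (mm10), per the submitters' processing notes. The authors deposited 1 table each for macrophages and tumors in log2 units. Unlogged and less 1, the values of every library sum to 1e+06, so they were taken as log2(CPM + 1), which no source states. Gene positions in the tables differ from GRCm38, so exon lengths come from GENCODE vM21 by gene identifier. Steps between low values gave the depth. Within 0.1 read, 83.9% to 90.1% of low values were whole reads, under the 95% set, so no count test was run.

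Each table was fitted whole with limma 3.58.1 in R 4.3.3 (eBayes with an intensity trend) on the deposited log2 values, where the mean over the table reached 1 CPM, two-sided, with Benjamini-Hochberg adjustment over all tested genes at a threshold of 0.05. On this scale the change of low genes is understated. Tests were tried on simulated data. Alternatives were pseudocounts of 0.1 and 5 CPM, other filters, trimmed-mean, median-ratio and protein-coding scaling, no intensity trend, and leaving out each library. The genes and lists were chosen with earlier results of these data known. All 35 genes could be named, with Cxcr4, label checks and a set list of pathway genes. A result for 1 pathway gene of that list is not reported here.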

Additional observations from a re-analysis of the deposited data

How the results depend on the processing

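No gene of the 34 was called under any alternative run. With other pseudocounts, filters and scalings the macrophage median stayed between -0.07 and 0.01 and the tumor median between -0.39 and -0.19, and with a library left out they ranged from -0.27 to 0.22 and from -0.49 to -0.09. The count of the 34 without overlap in macrophages was 1, below the controls, under each of the median-ratio, trimmed-mean and protein-coding scalings (3.81%, 3.62% and 4.46% of all genes below). With a library left out it was 1 to 4: 4 below without cKO 746 (7.71% of all genes), 4 above without control 720 (10.4%), 3 below without control 775 (9.67%), 2 above without cKO 867 (7%), and 1 above without cKO 725 (12.5%) or control 706 (8.91%). The tumor count of 10, all below, became 15 without cKO 746 (14 below, 29.3% of all genes, and 1 above, 34.3%) and 19 without cKO 725 (16 below, 26.5%, and 3 above, 39.0%). It was 26 without control 706 (23 below, 30.9%, and 3 above, 40.7%) or control 720 (16 below, 31.5%, and 10 above, 36.9%). Genes higher in macrophages than in tumor in all 4 mice numbered 14 under protein-coding scaling. With a library left out, the sign turned for 5 to 12 of the 34 in macrophages (12 without control 775) and 6 to 12 of the 33 in tumors (12 without control 720). Among the genes with differences recomputed one by one these included Isg20 (-1.02 to 0.22) and Oas1a (-1.0 to 0.14) in macrophages and Stat2 (-0.12 to 0.75), Oasl1 (-0.27 to 0.96), Ifih1 (-0.014 to 0.50) and Ifit2 (-0.058 to 0.30) in tumors. Fewer samples make non-overlap easier, and the cause of the other changes was not tested. No paired analysis was possible because no mouse is in both genotypes and the labels do not name the partners of the size-matched pairs. With 2 tumors a group, and 95% intervals up to 4.42 log2 units wide, tumor differences are weakly bounded.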
